A study of Sus scrofa with 4 samples.

Results

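The genes that drive cells through mitosis, *AURKA*, *CCNB1*, *CCNB2*, *CDC20*, *CDK1* and *TOP2A*, 6 in all, were followed in the ileum of suckling piglets that had gained little or much weight. They were chosen by gene name, and their members on the array are the probes whose RefSeq transcript accession belongs to 1 of these genes in the NCBI gene table of Sscrofa11.1. All 6 genes had such a probe, *AURKA* and *CDK1* had 2 each, and the 8 probes were 8 of 43603 on the array. All 8 were tested, among 33265 probes tested and 2158 tested genes with a name. Ileum slices came from piglets aged 16 days, born to Yorkshire × Landrace sows and Duroc boars and nursed by lactating sows. The low-gain group was 2 arrays, each of RNA pooled from 2 piglets of low weight gain, and the high-gain group was 2 arrays, each of RNA pooled from 3 piglets of high weight gain. Within a group, the sample titles tell the arrays apart by a letter, a or b. Groups were taken from the sample labels, although the design text of the series refers to weight at birth.

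Whether the lettered arrays of a group came from separate pools or from 1 pool is not stated, so the p-values reflect only how far these arrays vary, and that variation may be technical. Spread between single piglets was not measured. The arrays shared a slide and a scan. Of 43803 non-control spots, 32835 to 33972 per array were well above background, and none was saturated. Repeat spots varied most on low-gain array a, with a median coefficient of variation of 9.04% among repeat spots against 5.72% to 6.12% on the others, and its scanner software marked that value as outside its quality range. The labelled tissue was checked against its markers. *FABP6*, the bile acid binding protein gene of the ileum, and *FABP2*, a fatty acid binding protein gene of enterocytes, lay well above background on all 4 arrays. In RNA from whole tissue, fewer dividing cells and less RNA per dividing cell cannot be told apart.

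Cells enter mitosis when the kinase CDK1 is switched on by a B-type cyclin, encoded by *CCNB1* or *CCNB2*. Aurora kinase A, encoded by *AURKA*, matures the centrosomes and builds the spindle, and topoisomerase II alpha, encoded by *TOP2A*, untangles the copied chromosomes. CDC20 then turns on the anaphase-promoting complex, the ubiquitin ligase that marks the B-type cyclins for destruction and ends mitosis. Transcripts of all these genes build up as cells approach division. In the small intestine most division takes place in the crypts, and lymphocytes divide in the germinal centres of the Peyer's patches.

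The members were chosen with earlier results of these data known, so counts of their direction only describe them. All 8 probes had a lower mean in low gain, where 47.3% of all tested probes did. None passed the test, limma with p-values adjusted by Benjamini and Hochberg's method across the tested probes (threshold 0.05), which 0.144% of tested probes passed as lower in low gain. At an unadjusted p under 0.05, 3 of the 8 were lower, both probes of *AURKA* and the probe of *CCNB2*, where 8.57% of tested probes were. With 1 probe for each gene, the one with the highest mean signal, the 6 genes had a median log2 difference of -0.14 (low gain minus high gain), against 0.02 over all named genes. The sizes fell into a wide and a narrow set. *AURKA* and *CCNB2* differed by -0.78 and -0.55 on the log2 scale, and the other 4 genes by -0.17 to -0.06. An exact permutation test on 2 arrays against 2 cannot go below p = 0.333 (two-sided), so no single gene can pass one here.

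**Figure D1:**
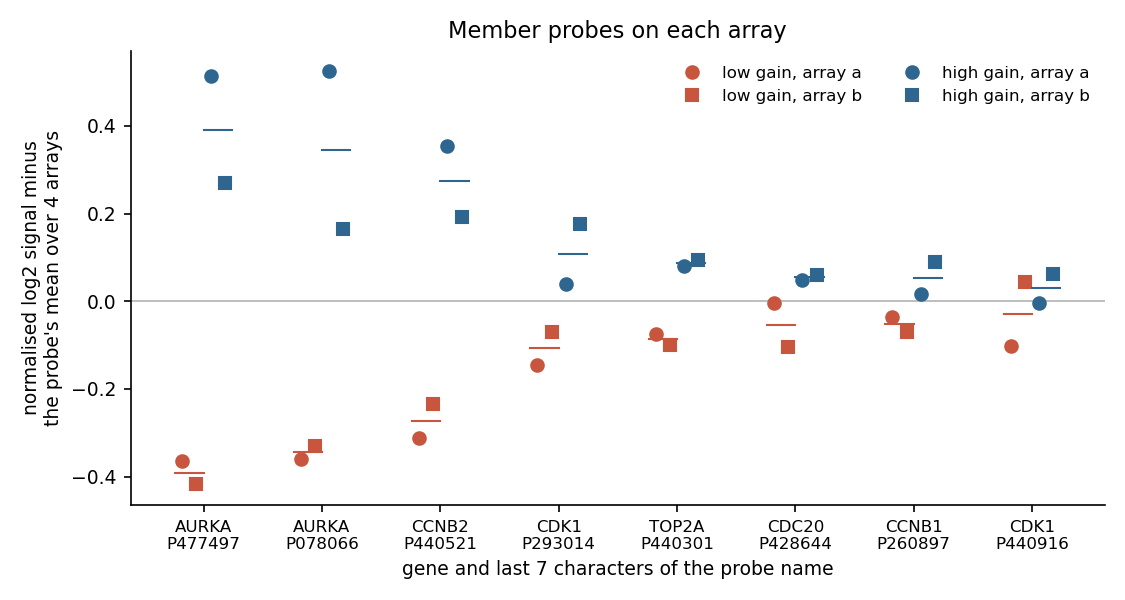
Each point is 1 array, as the normalised log2 signal of a probe minus the mean of that probe over the 4 arrays, and short lines are group means. The 2 low-gain arrays lie below both high-gain arrays for 7 of the 8 probes, and the arrays of the groups interleave for the *CDK1* probe at the right.

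*AURKA* had the largest difference. Its brighter probe, A_72_P477497, had scanner signals of 234.7 and 255.9 intensity units on low-gain arrays a and b and of 506.7 and 417.1 on high-gain arrays a and b. After log2 transformation and subtraction of the array's 75th percentile, these became -0.81 and -0.86 in low gain and 0.07 and -0.17 in high gain. Both low-gain arrays were therefore below both high-gain arrays, and the low-gain arrays lay 0.05 apart and the high-gain arrays 0.24 apart. The gene was 1.72-fold lower in low gain (log2 difference -0.78 ± 0.13, SE, n = 2 arrays per group, 95% interval -1.14 to -0.42, limma adjusted p = 0.161). Of all tested probes, 2.92% had a difference this low or lower.

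The other *AURKA* probe, A_72_P078066, matches the same transcript. Its signals were 128.0 and 147.7 in low gain and 277.6 and 211.1 in high gain. Normalised, they were -1.68 and -1.65 against -0.80 and -1.16, again without overlap. The probe was 1.61-fold lower in low gain (log2 difference -0.69 ± 0.16, limma adjusted p = 0.194). High-gain array a was the highest of the 4 on both *AURKA* probes, 0.24 and 0.36 above high-gain array b. Without that array the differences were -0.66 and -0.51. The gap between the probes within an array was 0.87 and 0.79 in low gain and 0.87 and 0.98 in high gain, so that it overlapped between the groups. Because both probes read 1 transcript of 1 gene in the same RNA, they are not independent samples of the groups.

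*CCNB2*, which encodes cyclin B2, was the other gene with a wide gap. Its signals were 445.8 and 532.5 on the low-gain arrays and 832.8 and 725.8 on the high-gain arrays. The normalised values were 0.12 and 0.20 in low gain and 0.79 and 0.62 in high gain, and the nearest arrays of the groups lay 0.43 apart. Cyclin B2 transcript was 1.46-fold lower in low gain (log2 difference -0.55 ± 0.12, 95% interval -0.87 to -0.23, limma adjusted p = 0.185). The arrays within a group differed by 0.08 and 0.16.

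These 3 probes depended on the fit and on the background correction. With a prior variance that follows signal intensity, the brighter *AURKA* probe (adjusted p = 0.0294) and *CCNB2* (adjusted p = 0.0420) passed as lower in low gain, as did 1.5% of all tested probes, while the dimmer *AURKA* probe did not (adjusted p = 0.0650). Neither gene passed that fit when low-gain array a was left out (adjusted p = 0.130 and 0.193). With normexp background correction from the median pixel signal, the differences were smaller, at -0.44 and -0.34 for the *AURKA* probes and -0.27 for *CCNB2*, all with an adjusted p of 1.0. That p-value is not particular to these probes, since no probe of the array passed in that setting. The SE was wide for bright members too, at 1.12 for *CCNB1* against 0.10 in the fit reported. When bright local backgrounds were first replaced by the array's median, an alternative added after the data were seen, the brighter *AURKA* probe was at -0.70 and passed (adjusted p = 0.0234), as did 1.21% of tested probes as lower in low gain. In that fit the dimmer *AURKA* probe (-0.47, limma adjusted p = 0.0730) and *CCNB2* (-0.45, limma adjusted p = 0.0570) did not pass.

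**Figure D2:**
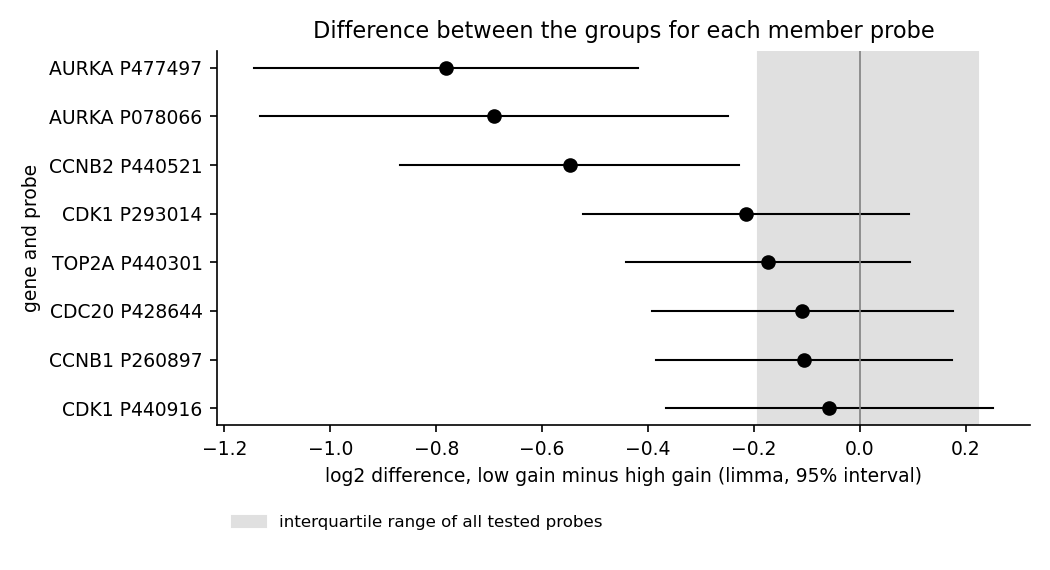
Points are limma log2 differences (low gain minus high gain) for each probe with 95% intervals, and the grey band is the interquartile range of all 33265 tested probes, -0.19 to 0.22. The intervals of the *AURKA* and *CCNB2* probes lie below 0, and those of the other 5 probes include it.

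*CCNB1*, which encodes cyclin B1, had a narrower gap. Its signals were 7191 and 7945 in low gain and 8756 and 8990 in high gain. The normalised values were 4.13 and 4.10 in low gain and 4.18 and 4.25 in high gain. The groups did not overlap, but their nearest arrays were only 0.05 apart, less than the 0.07 between the high-gain arrays. The log2 difference was -0.11 ± 0.10 (95% interval -0.38 to 0.17, limma adjusted p = 0.599). Within each array, *CCNB1* minus *CCNB2* was 4.01 and 3.90 in low gain and 3.39 and 3.63 in high gain. The groups did not overlap in that quantity, whose means differed by 0.44 on the log2 scale between the groups. The difference was not tested and depended on the background correction, at 0.14 with normexp and 0.30 with normexp after bright backgrounds were replaced.

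*CDK1*, the kinase that both cyclins activate, was read by 2 probes of 1 transcript. The probe with the highest mean signal, A_72_P440916, had signals of 7150 and 8944 in low gain and 8992 and 9174 in high gain. Its normalised values of 4.12 and 4.27 in low gain and 4.22 and 4.28 in high gain overlapped, since low-gain array b lay above high-gain array a. The log2 difference was -0.06 ± 0.11 (95% interval -0.37 to 0.25, limma adjusted p = 0.796), and it was 0.01 without low-gain array a.

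The other *CDK1* probe, A_72_P293014, had signals of 6620 and 7899 in low gain and 8847 and 9485 in high gain. Normalised, these were 4.01 and 4.09 in low gain and 4.20 and 4.33 in high gain, without overlap. Its log2 difference was -0.22 ± 0.11 (95% interval -0.52 to 0.09, limma adjusted p = 0.380). The first probe minus the second was 0.11 and 0.18 on the low-gain arrays and 0.02 and -0.05 on the high-gain arrays. The 2 probes of *CDK1* thus gave differences 0.16 apart, where those of *AURKA* gave differences 0.09 apart.

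*CDC20*, the gene for the activator of the anaphase-promoting complex, and *TOP2A* also had narrow gaps. *CDC20* signals were 940.8 and 993.9 in low gain and 1147 and 1128 in high gain, which gave normalised values of 1.20 and 1.10 against 1.25 and 1.26. The nearest arrays of the groups were 0.05 apart and the low-gain arrays 0.10 apart, so that the gap was smaller than the spread within low gain. The log2 difference was -0.11 ± 0.10 (limma adjusted p = 0.594). It was -0.06 without low-gain array b and -0.18 in the values deposited by the authors, where *CCNB1* was at -0.17. *CCNB1* was at -0.07 without high-gain array b.

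*TOP2A* was the tightest of the members. Its signals were 3319 and 3692 in low gain and 4340 and 4275 in high gain. The normalised values were 3.01 and 2.99 in low gain and 3.17 and 3.18 in high gain, so that arrays of 1 group lay 0.02 and 0.01 apart and the groups 0.15 apart. Topoisomerase II alpha transcript was 1.13-fold lower in low gain (log2 difference -0.17 ± 0.10, 95% interval -0.44 to 0.10, limma adjusted p = 0.409). The test borrows its variance from all probes, so the SE here is larger than the spread of these 4 values alone.

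Over the members, both low-gain arrays lay below both high-gain arrays for 7 of 8 probes, where 26.9% of all tested probes were so. With 1 probe per gene this held for 5 of 6 genes, *CDK1* being the exception, where 29.2% of named genes were so. All 8 probes read the same 4 RNA samples, so their shared direction is not 8 separate observations. The scanner software gave each of these spots an error of at most 10.1% of its signal. No spot of a member had an outlier flag, and each probe was spotted once.

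**Figure D3:**
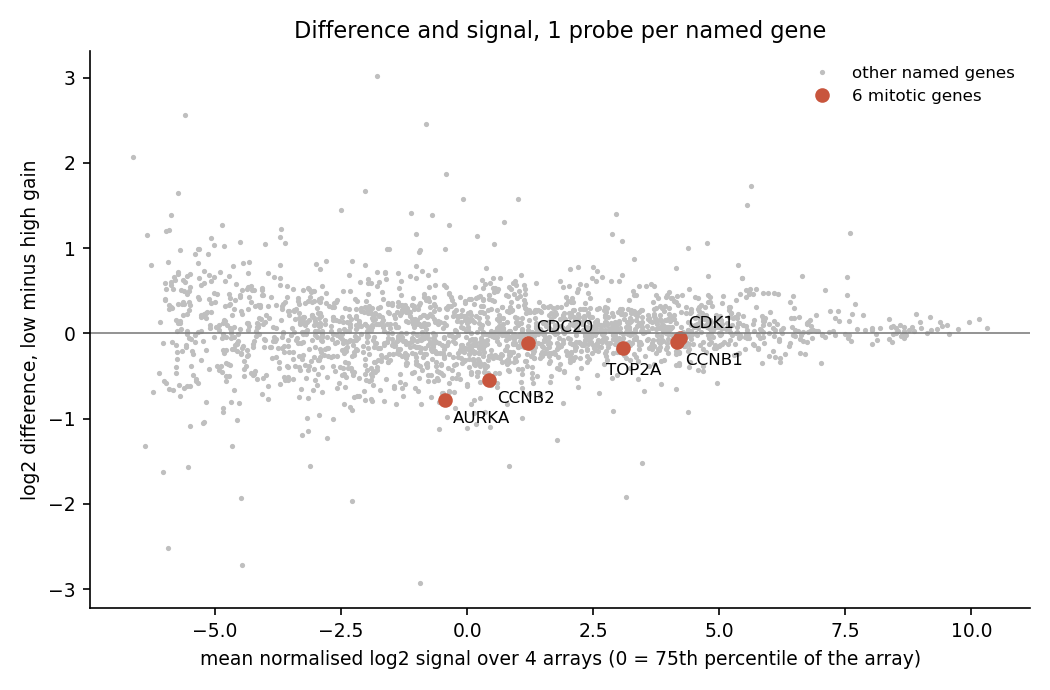
Each point is 1 named gene by its mean normalised log2 signal over 4 arrays (horizontal axis) and its log2 difference, low gain minus high gain (vertical axis). *AURKA* and *CCNB2*, the members with the widest difference, also have the dimmest probes of the 6, and the cloud of other genes is wider at low signal.

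The probes with the widest differences were also the dimmest ones, which is a property of the spots and not an order of transcript levels. The 6902 tested probes with a mean normalised log2 signal between -2 and 0, which include both *AURKA* probes, had differences of -0.61 at the 5th percentile and 0.54 at the 95th. For the 2870 probes between 0 and 1, where *CCNB2* lay, these were -0.50 and 0.48. For the 3787 probes above 3, where *CCNB1*, *CDK1* and *TOP2A* lay, they were -0.32 and 0.45. The *AURKA* and *CCNB2* probes were thus below the 5th percentile of probes as bright as they were, while the probes above 3 were within theirs. The part of signal brightness in the size of these differences was not tested.

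The patterns were also set beside those of 2157 other named genes, by the root mean square distance over the 4 arrays after each gene's own mean was removed. The gene nearest to *AURKA* was *APOE*, an apolipoprotein gene (distance 0.0179 log2 units, log2 difference -0.81), and the nearest to *CCNB2* was *CXCR4*, a chemokine receptor gene (0.0173, -0.57). Those nearest to *CCNB1*, *CDC20* and *TOP2A* were *TLR7*, *TIMP2* and *IL12RB1*, at distances of 0.0043 to 0.0085. None of the members had another member as its nearest gene. The distance from *AURKA* to *CCNB2*, the member nearest to it, was 0.129, and 48 other genes were closer. The closest members were *CCNB1* and *CDC20*, 0.0317 apart, with 22 genes closer to *CDC20* and 43 closer to *CCNB1*. For the mean profile of the 6 genes, the nearest were *SLC27A1*, *PTPN1*, *OAZ2* and *MEF2C*, at 0.0139 to 0.0185. With 4 arrays, many genes lie close to any given profile.

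Other genes of the cell cycle were taken from 6 lists. Of the 188 genes listed, 26 had a tested probe with a name. None of the 26 passed the test, which 0.417% of named genes passed in either direction, and 2, *CCND3* and *CHEK2*, had an unadjusted p under 0.05, where 21.6% of named genes did. Of the 26, 19 had a lower mean in low gain and 7 a higher one, with a median log2 difference of -0.08, where 46.6% of named genes had a lower mean. Their 76 probes included 61 with a lower mean in low gain.

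**Figure D4:**
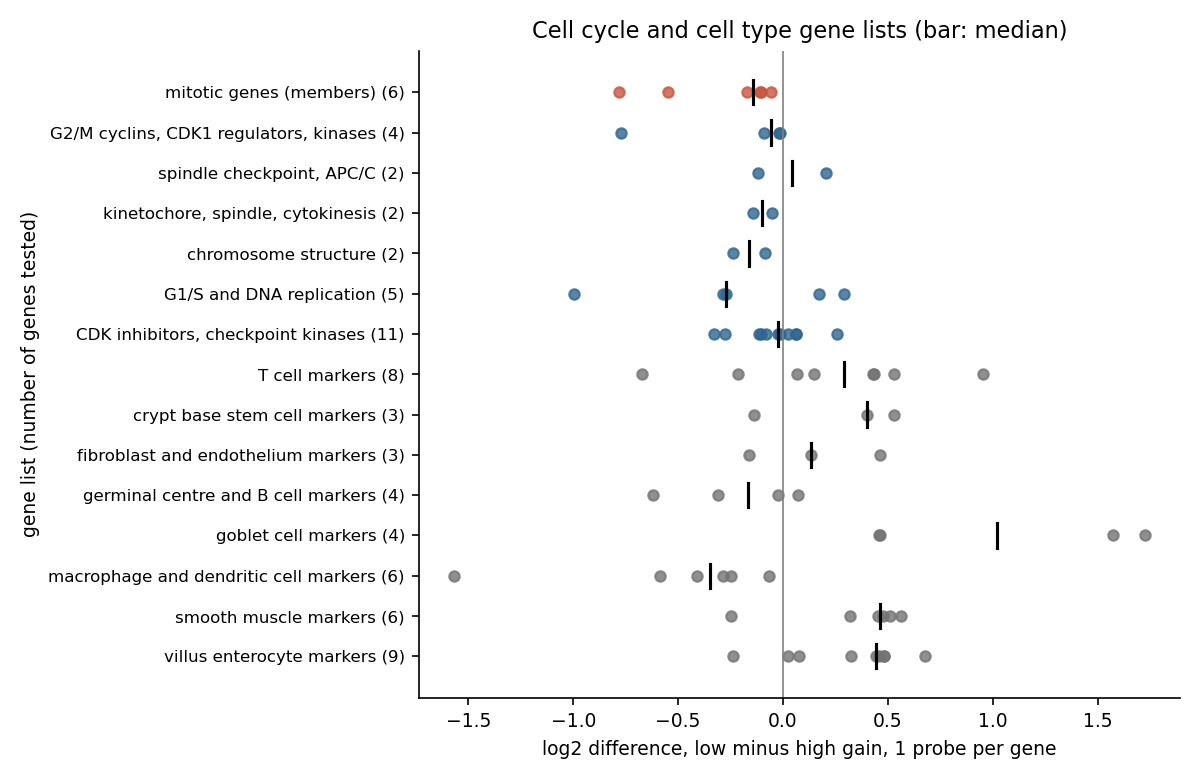
Points are log2 differences (low gain minus high gain) of the genes in each list, 1 probe per gene, and black bars are medians. Members are red, cell cycle lists blue and cell type markers grey. The 6 mitotic genes lie at or below -0.06, and the cell cycle lists lie between -0.33 and 0.29 except for *PKMYT1* and *CCND3*, which are lower.

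Among cyclins, CDK1 regulators and mitotic kinases, all 4 genes tested had a lower mean in low gain, with a median of -0.06. *PKMYT1*, whose kinase holds CDK1 inactive, had normalised values of -4.58 and -4.09 in low gain and -3.27 and -3.85 in high gain. Its groups did not overlap, but the arrays within a group lay up to 0.58 apart, and the log2 difference was -0.77 ± 0.28 (limma adjusted p = 0.276). The difference of *PKMYT1* depended on the background correction, at -0.20 with normexp after bright backgrounds were replaced. *AURKB*, the Aurora kinase of the chromosomal passenger complex, differed by -0.09 on its brightest probe and by -0.59 and -0.09 on its other 2, and the brightest probe turned to 0.06 with normexp, to 0.05 with normexp after bright backgrounds were replaced and to 0.04 in the authors' values. *CDC25C*, whose phosphatase activates CDK1, differed by -0.02, and *CCNG1*, a cyclin gene, by -0.01.

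The list for the spindle checkpoint and the anaphase-promoting complex held 2 tested genes. *FZR1*, which encodes an activator of that complex beside CDC20, differed by -0.12 on its brightest probe, which turned to 0.02 with normexp and to 0.01 in the authors' values. Its other 2 probes gave -0.67 and -0.04. *UBE2D1*, a gene for a ubiquitin-conjugating enzyme, was at 0.20 ± 0.14 (limma adjusted p = 0.476).

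Of spindle and chromosome genes, 4 were tested and all had a lower mean in low gain. *STMN1*, which encodes the microtubule-destabilising protein stathmin, differed by -0.14 on its brightest probe and by -0.50 to -0.23 on the 4 others. *BIRC5*, which encodes the passenger protein survivin, differed by -0.05, with its other probe at -0.29. *HMGB2*, a chromatin protein gene, had 4 probes, all lower in mean, with -0.24 on the brightest and -0.35 to -0.22 on the rest. *HMGB1* was at -0.09, and 13 of its 16 probes had a lower mean. None of these probes passed the test. Stathmin and survivin thus had their smallest difference on the brightest probe.

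In the list for entry into the cycle and DNA replication, 5 genes were tested, 3 with a lower and 2 with a higher mean in low gain. *CCND3*, the gene for cyclin D3, a cyclin prominent in lymphocytes, had the widest difference. Its normalised values were 0.47 and 0.72 in low gain and 1.89 and 1.29 in high gain, without overlap, but the high-gain arrays lay farther apart than the low-gain ones. The log2 difference was -0.996 ± 0.248 (limma adjusted p = 0.199), its other probe gave -0.92, and it passed as lower in the limma fit with the intensity trend (adjusted p = 0.0490), as did 2.69% of named genes. *CDK4*, whose kinase is activated by the D-type cyclins, was at -0.29, and *DNMT1*, the maintenance DNA methyltransferase gene, at -0.27 with all 6 of its probes lower in mean. *MYC*, a growth-promoting transcription factor gene, was at 0.29 with its other probes at 0.27 and 0.31, and *CCND2* was at 0.17.

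The list of CDK inhibitors, p53 pathway genes and checkpoint kinases was the longest tested. Of 11 tested, none passed the test, 7 had a lower and 4 a higher mean in low gain, and the median was -0.02. *CHEK2*, a DNA damage checkpoint kinase gene, was at -0.33 ± 0.12 (limma adjusted p = 0.269), with its other probes at -0.58 and -0.47. The value of -0.33 depended on the background correction, at -0.14 with normexp after bright backgrounds were replaced. *GADD45A*, a stress-induced gene, was at -0.28, and *BTG2*, an antiproliferative gene, at 0.26.

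Markers of several cell types also differed in mean between the groups, but in the next 4 lists only *CLCA1*, a goblet cell gene, passed the limma test (log2 difference 1.73, adjusted p = 0.0393). Villus enterocyte markers had a higher mean in low gain for 8 of 9 tested genes of 18 listed. All 9 lay well above background on every array. Their summed level, in units of each array's 75th percentile, was 879.4 and 905.4 in low gain against 759.2 and 823.6 in high gain. Smooth muscle markers had a higher mean for 5 of 6 tested genes of 10 listed (summed level 324.1 and 318.1 against 248.3 and 245.0). Of their 36 probes, 31 had a higher mean. The brightest gene, *DES*, differed by 0.51 on the probe used but by -0.34 and -0.02 on its other 2. Without *DES* the sum was 157.6 and 157.5 against 135.8 and 128.1. The exception, *ACTA2*, was at -0.25, and 3 of its 4 probes had a lower mean. Goblet cell markers had a higher mean for 4 of 4 tested genes of 9 listed (179.1 and 175.1 against 86.5 and 93.0). Macrophage and dendritic cell markers had a lower mean for 6 of 6 tested genes of 11 listed (22.4 and 22.6 against 25.20 and 25.04). Of the 13 probes of these genes, 12 had a lower mean. One of the genes, *SIGLEC1*, missed the scanner's background threshold on 1 low-gain array. Its log2 difference of -1.57 was -0.12 with normexp after bright backgrounds were replaced. *AIF1*, the brightest of them, differed by only -0.07, with its other probe at 0.002.

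Markers of the compartments in which cells divide did not go one way. Of the crypt base stem cell list, 3 of 14 genes were tested, and *ASCL2* (0.53) and *SOX9* (0.40) had a higher mean in low gain and *HOPX* (-0.14) a lower one, with a summed level of 2.96 and 3.07 against 2.455 and 2.62 that overlapped without its brightest gene, *ASCL2* (1.255 and 1.338 against 1.31 and 1.37). Of the germinal centre and B cell list, 4 of 14 were tested. *CD79A* (-0.31), *FCER2* (-0.62) and *CD40* (-0.02) had a lower mean in low gain, and the summed level of the list, 53.3 and 47.15 against 50.6 and 54.7, overlapped. Without its brightest gene, *CD40*, it was lower in low gain (12.9 and 12.1 against 13.2 and 15.55). *FCER2*, too, missed the scanner's background threshold on 1 low-gain array. T cell markers had a higher mean for 6 of 8 tested genes of 14 listed. Their summed level, however, was lower in low gain (16.8 and 16.6 against 21.3 and 19.8). That lower sum came from *CD247*, the brightest of them (log2 difference -0.67, limma adjusted p = 0.161), and without it the sum was higher in low gain (8.06 and 7.30 against 6.16 and 6.24). The part of these cell types in the differences of the mitotic genes was not tested. For the 6 mitotic genes themselves the summed level was 46.9 and 48.1 in low gain and 50.9 and 52.5 in high gain, without overlap. Without their brightest gene, *CDK1*, it was 29.5 and 28.9 against 32.3 and 33.0, also without overlap.

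**Figure D5:**
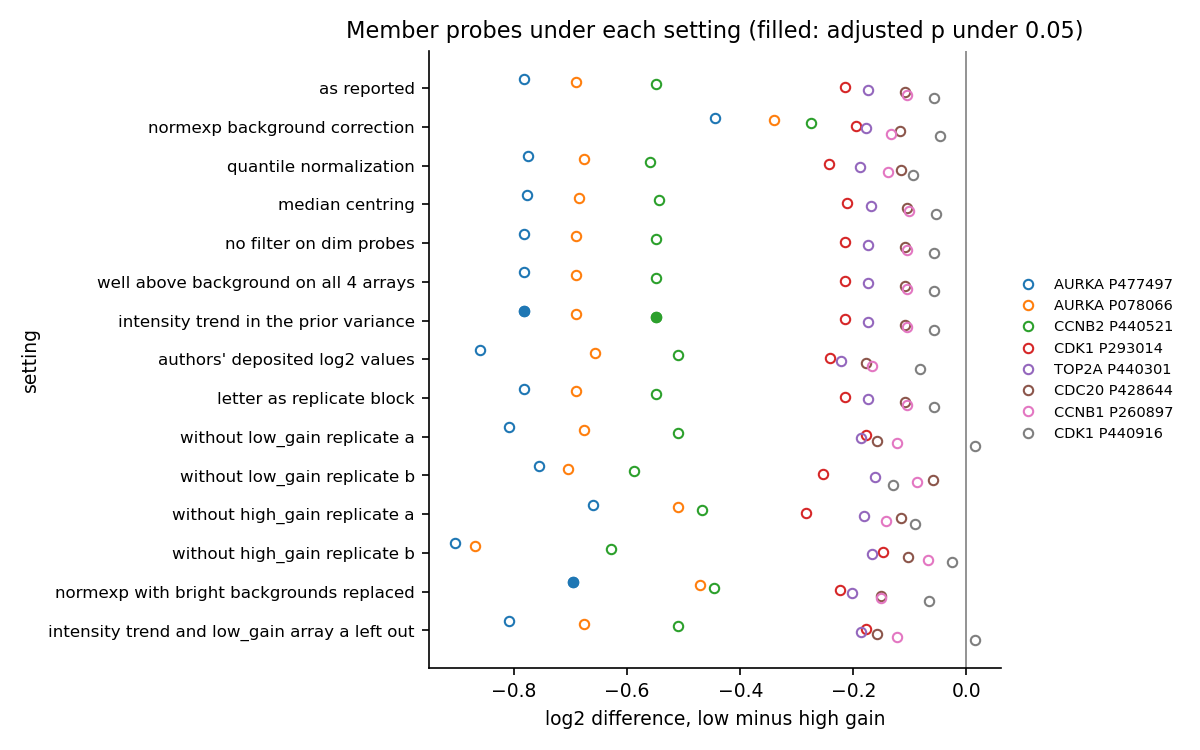
Log2 differences (low gain minus high gain) of the 8 member probes under each processing setting, with filled points where the adjusted p was under 0.05. The *AURKA* and *CCNB2* probes stay left of the other 5 probes in each setting shown, and 1 *CDK1* probe crosses 0 without low-gain array a.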

How the data were processed

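Total RNA from ileum was labelled with Cy3 and hybridised to 1-colour Agilent arrays of 45220 spots. The scanner files the authors deposited give spot intensity on a linear scale. The software was Agilent Feature Extraction 10.7.3.1 by the file headers, and its processed signal already has the background treated. The authors also deposited log2 values for these arrays, with column medians of 5.59 to 5.67. These correlated with the log2 processed signal of the same array at 0.982 to 0.993 across spots (slopes 0.912 to 0.941). How they were normalized is not stated in these sources, and they served only as an alternative.

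From each log2 processed signal, the 75th percentile of its array's non-control spots was subtracted. Repeat spots of a probe were averaged without outlier spots. Probes well above background on both arrays of at least 1 group were tested with limma 3.58.1 (R 4.3.3, lmFit and eBayes). The fit was also run on simulated independent arrays, with variances drawn from its own fitted prior. That run cannot show how the fit behaves on repeat arrays of 1 pool. Names came from RefSeq accessions without versions, which matched 5461 probes. No coordinates are given, since the files name no build. No probe, promoter or protein sequences were used here. Members and lists were chosen with earlier results of these data known. All probes of members are described, as are, except for a few items not reported here, the genes nearest to each in pattern and up to 4 genes with the largest difference from each cell cycle list. Alternatives were other background corrections, scalings, filters, a prior variance that follows intensity, the authors' values, a letter block, the mean over a gene's probes and leaving out each array. Sums of marker lists without their brightest gene were added after the data were seen.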

Additional observations from a re-analysis of the deposited data

How the results depend on the processing

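Of the 8 probes, 7 kept a lower mean in low gain under every alternative run. The exception was the *CDK1* probe A_72_P440916, at 0.014 without low-gain array a, also with the intensity trend, and at -0.13 without low-gain array b. No member probe passed except under the intensity trend (2) and under normexp with bright backgrounds replaced (1, *AURKA*), the latter and the trend without low-gain array a being added after the data were seen. The median difference of the 6 genes was -0.20 in the authors' values and -0.17 to -0.13 when 1 array was left out. With the letter as a replicate block, which the labels do not establish as pairing, 0 probes of the array passed. That count was 80 in the fit reported (32 higher, 48 lower), 0 with normexp, 163 with median centring, 12 with no filter, 0 with signal required on all 4 arrays, 1250 with the trend, 1043 with bright backgrounds replaced, 197 with the trend and without low-gain array a, and 0 to 37 when 1 array was left out. The cause of these changes was not tested, except that the block and the fits without 1 array leave fewer residual degrees of freedom. Signs turned for *AURKB* (0.060 with normexp, 0.036 in the authors' values, 0.051 with bright backgrounds replaced, -0.19 to 0.014 with 1 array left out), *FZR1* (0.020, 0.0069, 0.023 and -0.27 to 0.030 in the same order), and, with 1 array left out, *CDC25C* (-0.088 to 0.047), *CCNG1* (-0.037 to 0.0089, the latter without low-gain array a, also with the trend) and *BIRC5* (-0.16 to 0.049). The number of arrays limits every value.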
